A study of Mus musculus with 21 samples.

Results

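Heat shock proteins and chaperones were followed through mouse embryos in which the nucleus had been removed or replaced. The family was set as 10 named genes, Hspa8, Hspa5, Hspa9, Hsp90aa1, Hsp90ab1, Hspb1, Hspd1, Hspe1, Hsf1 and Hsf2, and its probes were found by the gene symbol of the platform annotation, without use of any measured value. Of these genes, 6 had a probe (8 of the 24613 probes on the array), 6 of the probes passed the detection filter, and 5 genes (Hspb1, Hspa9, Hspd1, Hspa5 and Hsp90aa1) were tested among 8527. Hspa8, Hsp90ab1, Hspe1 and Hsf1 were not analysed here. Expression was measured on 21 Illumina bead arrays, lying on 6 chips and forming 8 groups, and each embryo array held a pool of 20 embryos grown in KSOM medium.

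Interphase zygotes (3 arrays) were taken 24 to 28 h after hCG, the hormone injection that triggers ovulation in the oocyte donor. Mitotic zygotes (3 arrays) were held in mitosis by nocodazole, which blocks the spindle, until 32 to 34 h. The other embryo groups all date to 48 to 50 h. They are untreated 2-cell embryos (2 arrays), drug controls exposed to nocodazole at mitosis and left with their own genome (3), genomeless embryos enucleated 22 to 24 h earlier and given no genome (2), interphase transfer embryos made by enucleation and transfer in interphase zygotes (2), and M phase transfer embryos 22 to 24 h after transfer (4). Cultured embryonic stem (ES) cells had 2 arrays, and the source label of ES cell A names peripheral blood, against its title and cell type. Which cell donated the transferred genome is not stated in the labels. The comparisons ask how the genes responded to mitotic arrest, to the drug, to loss of the genome and to transfer into a zygote in either phase of the cell cycle.

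Heat shock proteins bind unfolded or newly made proteins and keep them from clumping, and several use cycles of ATP binding and hydrolysis to help them fold. Each cell compartment has its own set, and heat shock factors raise the transcription of many of the genes when unfolded proteins build up. In the mouse, HSP70 family genes are among the earliest to be transcribed from the embryo's own genome around the 2-cell stage.

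Levels below are log2 values of background-corrected, quantile-normalised signal, errors are SDs over samples unless named as SE, and a gene is called when its adjusted p in the limma fit of all 8527 genes is below 0.05. A probe counts as detected on an array when its detection p is below 0.01. The pairs mitotic A with C and drug control B with C differed by less than other arrays of a group (SD of log2 differences 0.117 and 0.120, against 0.280 to 1.48 for 17 other pairs) and were averaged, which left 19 samples. Genomeless array B and interphase transfer array B were dim, with mean signals of 11.25 and 12.79 against 73.0 to 688 on the other arrays, and detected 2426 and 3412 probes against 4816 to 8317. Both lie on chip 6. Of 9 ES cell markers, 8 were detected in each ES cell array and 0 to 7 in embryo arrays. Oocyte markers were detected at 6 to 9 of 10 in all embryo arrays and 1 to 2 in ES cells. Blood markers reached 0 to 1 of 7, fibroblast markers 0 to 3 of 10 and cumulus and granulosa cell markers 0 to 2 of 11, the last with Amhr2 detected on all 2-cell, drug control and M phase transfer arrays and on ES cell B, and on no genomeless or interphase transfer array. The summed signal of that list was 734 to 1806 in those 3 embryo groups and 33.6 to 295 on the other arrays. The part of these cells in the results was not tested. In pooled embryos, fewer cells and less RNA per cell cannot be told apart.

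**Figure D1:**
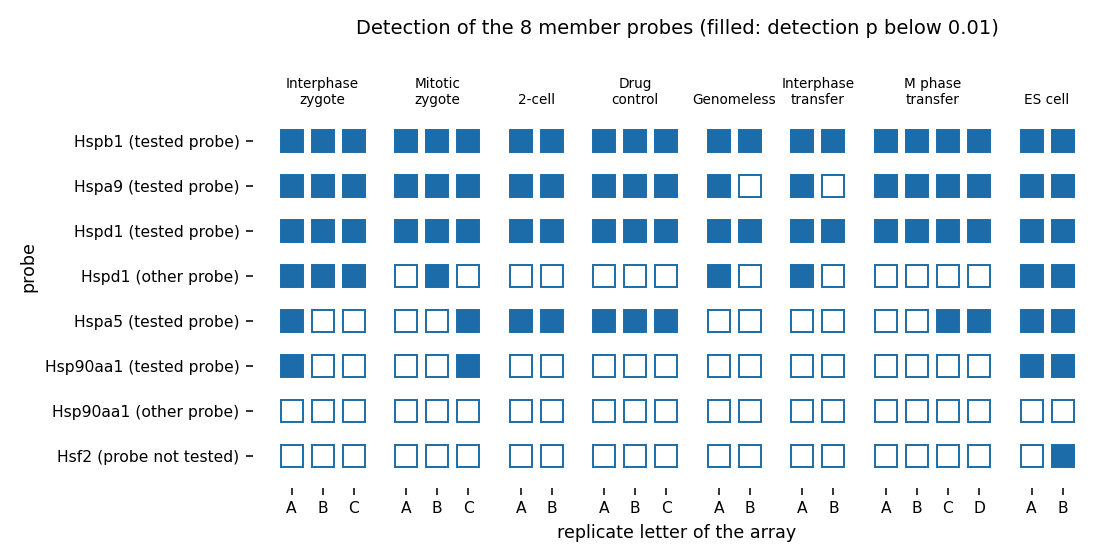
Detection of the 8 member probes (vertical axis) on the 21 arrays (horizontal axis, by group and replicate letter), filled where the detection p was below 0.01. The Hspb1 probe and the tested Hspd1 probe were detected on all 21 arrays, and the second Hsp90aa1 probe on 0.

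The promoters of 3 chaperone loci are shown because they hold matches to motifs of 2 stress responses. Heat shock factors bind repeats of the unit GAA and its complement TTC, and ER stress factors bind a CCAAT box spaced from CCACG. Sequences are RefSeq promoter windows of GRCm38.p6, upstream of the start site and 5′ to 3′ on the plus strand. Windows were found for 5 of the 10 genes (Hspb1, Hspa5, Hspd1, Hspe1 and Hsf2).

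Hspb1 (chr5:135887669-135887918, plus strand, capitals mark paired heat shock units):
Hspb1: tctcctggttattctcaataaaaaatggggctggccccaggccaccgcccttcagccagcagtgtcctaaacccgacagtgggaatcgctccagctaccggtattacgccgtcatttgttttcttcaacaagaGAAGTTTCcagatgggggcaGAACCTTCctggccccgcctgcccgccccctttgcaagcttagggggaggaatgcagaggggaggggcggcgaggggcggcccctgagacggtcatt
Hspa5 (chr2:34771840-34772089, plus strand, capitals mark the ER stress response element):
Hspa5: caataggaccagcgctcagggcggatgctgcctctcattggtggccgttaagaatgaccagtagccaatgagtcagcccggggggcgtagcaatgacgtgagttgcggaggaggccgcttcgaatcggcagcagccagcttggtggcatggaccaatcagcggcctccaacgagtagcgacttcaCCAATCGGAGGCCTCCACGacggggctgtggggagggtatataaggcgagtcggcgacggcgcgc
Hspd1 and Hspe1 (chr1:55087933-55088147, plus strand, the 215 bases between the start of Hspe1 on the plus strand and the nearer start of Hspd1 on the minus strand, capitals mark a run of alternating heat shock units):
Hspd1 and Hspe1: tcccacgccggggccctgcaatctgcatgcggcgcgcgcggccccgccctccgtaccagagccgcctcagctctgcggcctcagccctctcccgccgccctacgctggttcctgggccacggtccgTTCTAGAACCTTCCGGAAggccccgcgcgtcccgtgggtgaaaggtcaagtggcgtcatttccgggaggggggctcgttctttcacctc

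The paired heat shock unit, GAANNTTC or TTCNNGAA on both strands, occurred in 15.1% of 32851 promoter windows of 300 bases, and Hspb1 had 2 matches, which end 109 and 89 bases before the start site. The 3-unit form, which adds another spacer of any 2 bases and another unit in alternating direction and so contains the paired form, occurred in 0.603% of windows. The region shared by Hspd1 and Hspe1 held 2 overlapping matches to it, 71 to 76 bases before the Hspe1 start. The ER element, CCAAT, any 9 bases and CCACG, on either strand, occurred in 0.119% of windows and once upstream of Hspa5, ending 46 bases before its start. The Hsf2 window held no match to these motifs. A match describes the letters of the window and was not tested as a binding site.

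Hspb1 encodes the small heat shock protein HSP27 (HSP25 in the mouse), an ATP-independent holder of unfolded proteins that also binds actin. Its level was lowest in zygotes, intermediate in embryos that kept their own genome, higher in every enucleated or transfer array, and highest in ES cells. Interphase zygotes read 6.81, 7.27 and 7.60, and mitotic zygotes 7.87, 7.52 and 7.90. The 2-cell embryos read 8.22 and 8.06 and drug controls 8.30, 8.74 and 8.88. Genomeless embryos read 9.86 and 9.76 and interphase transfer embryos 10.16 and 11.12. The lowest of these last 4 arrays lies above the highest of the 11 arrays of zygotes, 2-cell embryos and drug controls. M phase transfer embryos read 10.07, 10.15, 10.49 and 11.51, within the range set by the other manipulated embryos except for the highest array, D. ES cells read 11.77 and 12.44, above all embryo arrays. In order, the group means were 12.11 ± 0.47 in ES cells (n = 2), 10.64 ± 0.68 in interphase transfer (n = 2), 10.55 ± 0.66 in M phase transfer (n = 4), 9.81 ± 0.07 in genomeless (n = 2), 8.56 ± 0.36 in drug control (n = 2), 8.14 ± 0.12 in 2-cell (n = 2), 7.70 ± 0.26 in mitotic (n = 2) and 7.23 ± 0.40 in interphase zygote samples (n = 3). Neighbours in that order whose samples overlapped were the 2 transfer groups and the 2 zygote groups.

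The deposited scaled signal, which has 1 factor per array and no quantile step, gave the same split of the embryo arrays. It was 53.3 to 199 in zygotes, 167 and 218 in 2-cell embryos and 249, 320 and 345 in drug controls. It was 643 and 408 in genomeless embryos, 1011 and 1721 after interphase transfer, and 1110, 1127, 1393 and 2729 after M phase transfer. The dimmest manipulated array, genomeless B at 408, was above the brightest drug control at 345. The next counts were made after the values were seen. Among the 8527 tested genes, 10 (0.117%) were higher on all 8 manipulated arrays than on all 11 other embryo arrays. Another 20 (0.235%) were lower on all 8 than on all 11. Hspb1 had a gap of 0.88 between these sets on the log2 scale, and Fto, an RNA demethylase gene, had a larger one, at 0.997. The separation of Hspb1 was also seen with neqc background correction (gap 0.96), and it was not seen with median scaling, under which the sets overlapped by 1.12. The count of genes higher on all manipulated arrays was 10 with neqc, 7 with the deposited values and 1 with median scaling.

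**Figure D2:**
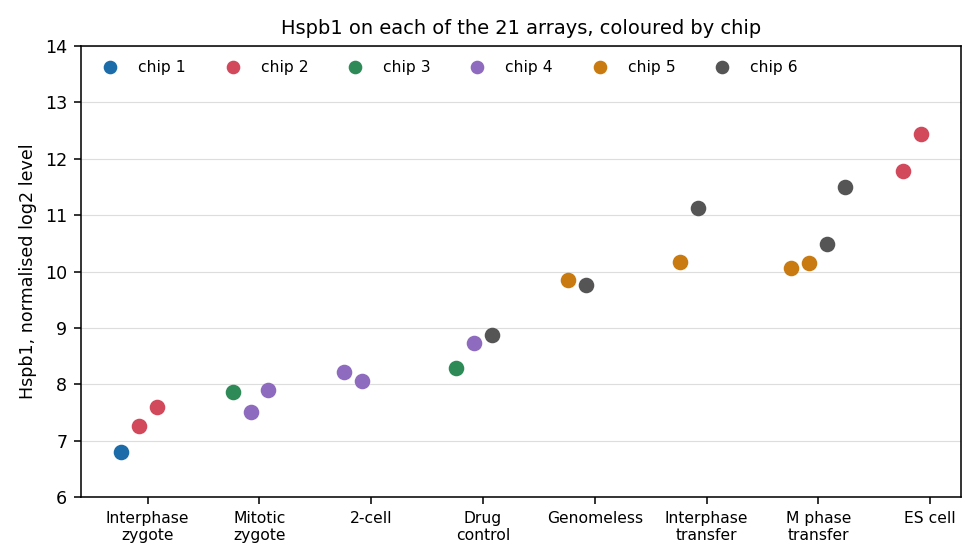
Normalised log2 level of Hspb1 (vertical axis) on each array (points), by group (horizontal axis) and coloured by chip. All 8 manipulated arrays, at 9.76 to 11.51, lie on chips 5 and 6, and drug control C, at 8.88, is the chip 6 array of the unmanipulated embryos.

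Against mitotic zygotes, genomeless embryos had a 4.31-fold higher normalised Hspb1 level (log2 difference 2.11 ± 0.47 SE, adjusted p = 0.00675), higher in 2 of 2 samples. Before normalisation the signal was 1086 and 23.2 in genomeless embryos A and B and 123 to 140 in mitotic zygotes. Those genomeless arrays detected 4816 and 2426 probes, and the mitotic zygote arrays 7887 to 8131. Hspb1 was the member called among 5, and 20.4% of all tested genes were called in that comparison, 6.85% as higher and 13.5% as lower. The call was absent with chip as a block (2.03, adjusted p = 0.0615), with median scaling (0.98), the deposited scaled values (1.57), array quality weights (adjusted p = 0.0775) and without mitotic zygote B (adjusted p = 0.0657). The 2 groups also differ in age, at 32 to 34 h and 48 to 50 h. Against drug controls of the same age the genomeless difference was 1.25 ± 0.47 SE (adjusted p = 0.0575, not called), a comparison added after the data were seen in which 30.7% of genes were called (11.4% as higher, 19.3% as lower) and Hspa9 was the called member. There 2 of 11 alternatives called Hspb1, among them the fit with the replicate letter as a block (adjusted p = 0.0166). Over these alternatives the difference ran from 0.35 to 1.39.

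Interphase transfer embryos exceeded drug controls in Hspb1 by 4.25-fold (log2 difference 2.09 ± 0.47 SE, adjusted p = 0.00460). Without the dim arrays the difference was 1.61, from 1 interphase transfer array. Of 11 alternatives 10 made the call, and with median scaling it was lost (1.27, adjusted p = 0.274). Of all genes 26.6% were called in that comparison, 9.51% as higher and 17.1% as lower, and 2 of the 5 members were called, Hspb1 as higher and Hspa9 as lower. M phase transfer embryos exceeded drug controls by a like 3.99-fold (log2 difference 2.00 ± 0.41 SE, 95% interval 1.12 to 2.87), in 4 of 4 samples. That difference had an adjusted p of 0.0700 and was not called, in a comparison in which 0.258% of genes (0.129% as higher and 0.129% as lower) and 0 of the 5 members were called (1, Hspb1, at an unadjusted p under 0.05). It was called with the 21 arrays treated as separate samples, with array quality weights and without the dim arrays (adjusted p = 0.0387). Both comparisons share the drug control samples.

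Within chip 6, the single chip that holds both kinds of embryo, M phase transfer arrays were 2.11 and the interphase transfer array 2.24 above drug control C on the log2 scale. Drug controls C on chip 6 and B on chip 4, which were averaged as repeats, read 8.88 and 8.74. The genomeless array on chip 6 was 0.88 above that drug control. The genomeless and interphase transfer arrays of chip 6 are the dim arrays. Their Hspb1 signals before normalisation, 23.2 and 111.2, were below the 186.8 of drug control C. Those of the M phase transfer arrays, 1125 and 1006, were above it.

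Between manipulated groups, no difference in Hspb1 was called. Interphase transfer minus genomeless was 0.83 (95% interval -0.17 to 1.84, adjusted p = 0.511), in a comparison in which 0.915% of genes (0.575% as higher, 0.34% as lower) and 0 members were called, and 0 had an unadjusted p under 0.05. M phase transfer minus genomeless was 0.74 (-0.13 to 1.62, adjusted p = 0.181). M phase minus interphase transfer was -0.09 (-0.96 to 0.78, adjusted p = 0.891), and the sign of that value turned with the scaling and with leaving out 1 of several samples. Between embryos that kept their genome, mitotic minus interphase zygote was 0.48 (-0.44 to 1.40), 2-cell minus mitotic zygote 0.44 (-0.57 to 1.44) and drug control minus 2-cell 0.42 (-0.59 to 1.42). None of these was called, with intervals that include 0. The groups of the last 2 did not overlap, as for 81.4% and 32.2% of all genes in those comparisons. ES cells exceeded 2-cell embryos 15.7-fold (3.97 ± 0.47 SE, adjusted p = 8.19e-05), a call made under all 10 alternatives and with each of 4 samples left out. In that comparison 15.4% of genes (8.4% as higher, 6.98% as lower) and 2 of the 5 members, Hspb1 and Hspd1, were called.

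Hspa9 encodes mortalin, the mitochondrial HSP70 that pulls proteins through the inner membrane and folds them in the matrix. Its signal was low in genomeless and interphase transfer embryos and at the level of unmanipulated embryos after M phase transfer. Genomeless embryos read 8.53 and 6.77 and interphase transfer embryos 8.61 and 7.24, the lower value of each being a dim array on which the probe was not detected. M phase transfer embryos read 10.19, 10.35, 9.92 and 9.32 and drug controls 10.21, 9.63 and 9.64. These arrays did not overlap with the genomeless or interphase transfer arrays. Of all genes, 45.1% did not overlap between M phase transfer and genomeless embryos and 42.5% between the 2 transfer groups. Against drug controls the shares were 60.6% for genomeless and 59.5% for interphase transfer embryos. The 2-cell embryos read 9.44 and 9.79, mitotic zygotes 9.64, 9.24 and 9.57, interphase zygotes 9.69, 9.75 and 8.62 and ES cells 9.08 and 10.53, and these 4 groups overlapped with each other and with drug controls.

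Hspa9 was higher in M phase transfer than in genomeless embryos (2.29 ± 0.56 SE, 4.91-fold, adjusted p = 0.00540), the member called of 5 beside 34.3% of all genes (20.5% as higher, 13.8% as lower). It was higher in M phase than in interphase transfer embryos (2.02 ± 0.56 SE, 4.05-fold, adjusted p = 0.0138), again the member called, beside 29.1% of genes (17.8% as higher, 11.4% as lower). It was lower in interphase transfer embryos than in drug controls (-2.00 ± 0.64 SE, adjusted p = 0.0335) and lower in genomeless embryos than in drug controls (-2.27 ± 0.64 SE, adjusted p = 0.0150). All 4 calls were lost without the dim arrays and with array quality weights. Without the dim arrays, from 1 array on the low side, the differences were 1.41, 1.34, -1.31 and -1.39, with adjusted p-values of 0.0685, 0.0890, 0.124 and 0.0996. The drug control comparisons also lost their call without drug control A, and the interphase transfer one without drug controls B and C. The comparisons share samples with each other. On chip 5, which holds no dim array, the M phase arrays exceeded the genomeless array by 1.74 and the interphase transfer array by 1.66. Genomeless embryos were 1.77 below mitotic zygotes (adjusted p = 0.0660, not called). That difference was -0.89 without genomeless B (adjusted p = 0.455) and -2.65 without genomeless A (adjusted p = 0.0104, called), and it was called with the deposited values (-2.93) and with separate arrays (-1.83). For Hspa9, M phase transfer minus drug control was 0.02 (95% interval -1.17 to 1.22).

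**Figure D3:**
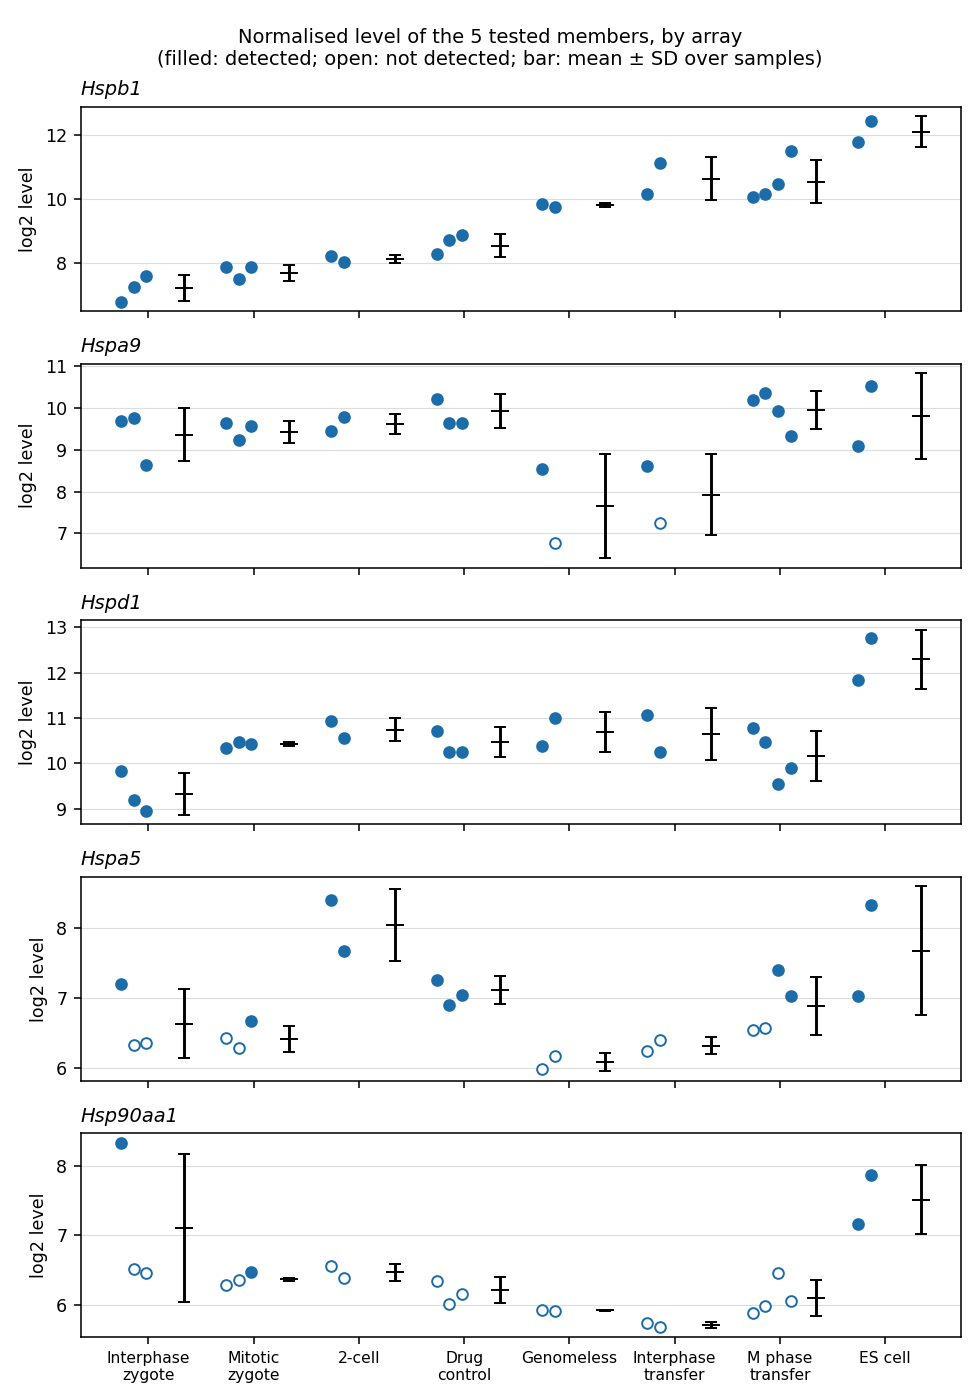
Normalised log2 level (vertical axes) of the 5 tested members in the 8 groups (horizontal axis), with 1 point per array, filled where the probe was detected, and the mean ± SD over samples beside the points. Hspb1 runs from 6.81 in an interphase zygote to 12.44 in an ES cell array, and Hspa9 drops below 9 in 1 interphase zygote array and in all 4 genomeless and interphase transfer arrays.

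Hspd1 encodes HSP60, the barrel of the mitochondrial chaperonin, whose lid is the Hspe1 product. Its level was nearly flat across embryos from mitosis onwards and stood higher in ES cells. Interphase zygotes read 9.83, 9.20 and 8.94 and mitotic zygotes 10.34, 10.46 and 10.43, without overlap. These 2 groups did not overlap for 31.9% of all genes. The mitotic minus interphase difference of 1.10 ± 0.43 SE had an adjusted p of 0.876, in a comparison in which 0% of genes and 0 members were called by limma and 403 genes, Hspd1 among them, had an unadjusted p under 0.05. Array quality weights turned it into a call (1.29, adjusted p = 0.000807), and called 8.27% of all genes as higher and 6.66% as lower. Over 10 alternatives the difference ran from 0.017 to 1.29, and the others did not call it. The 2-cell embryos read 10.93 and 10.56 and drug controls 10.71, 10.25 and 10.24. Genomeless embryos read 10.37 and 11.001, interphase transfer embryos 11.06 and 10.25, and M phase transfer embryos 10.77, 10.46, 9.55 and 9.90. These 5 groups overlapped throughout. ES cells read 11.83 and 12.76 and exceeded 2-cell embryos by 1.55 ± 0.47 SE (2.92-fold, adjusted p = 0.0364). That call was made under 5 of 10 alternatives, and without either 2-cell array or without ES cell B it was lost.

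A second Hspd1 probe was dimmer and followed another course. It was detected on all 3 interphase zygote arrays, at 7.50, 7.65 and 7.31, on mitotic zygote B, both ES cell arrays, genomeless A (7.93) and interphase transfer A (7.16), and on no 2-cell, drug control or M phase transfer array. The tested probe was lowest in interphase zygotes, where this one had its highest group mean (7.49), so the direction from zygote to 2-cell embryo depends on the probe. Where either probe lies in the transcript was not tested.

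Hspa5 encodes BiP, the HSP70 of the endoplasmic reticulum and a target of the unfolded protein response. Its signal was near background in most zygote arrays and present in all 2-cell and drug control arrays. Mitotic zygotes read 6.43, 6.28 and 6.66, with the probe detected on array C. The 2-cell embryos read 8.40 and 7.67 and drug controls 7.25, 6.89 and 7.04. All these drug control values lie between the other 2 groups. Hspa5 was higher in 2-cell embryos than in mitotic zygotes (1.63 ± 0.45 SE, 3.09-fold, adjusted p = 0.0144), the member called of 5 beside 27.7% of all genes (13.9% as higher, 13.8% as lower). The difference was 1.57 within chip 4. The call was lost with median scaling and without either mitotic sample or 2-cell A.

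Drug controls read below both 2-cell arrays, by a mean of 0.93 (95% interval -1.89 to 0.03 for drug control minus 2-cell, adjusted p = 1.0). In that comparison 0% of genes and 0 members were called by limma, 96 genes and 0 members had an unadjusted p under 0.05, and 32.2% of genes had groups that did not overlap. Hspa5 was not detected on any of the 4 genomeless and interphase transfer arrays (5.98 to 6.40). M phase transfer embryos read 6.54, 6.57, 7.40 and 7.03, detected on C and D, the chip 6 arrays. The fit called no difference between these 2 groups and M phase transfer (adjusted p = 0.127 for genomeless and 0.296 for interphase transfer) or drug controls (0.0964 and 0.216). With undetected arrays set at their lowest detected signal those differences change sign, so no size or direction was measured. Interphase zygotes read 7.20, 6.33 and 6.36 and ES cells 7.02 and 8.33.

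Hsp90aa1 encodes the inducible cytosolic HSP90, which holds kinases and steroid receptors in an active-ready form. Its tested probe was detected on 4 arrays, and interphase zygote A, at 8.34, stood apart from B and C, at 6.51 and 6.46. Array A is the sole array on chip 1. Mitotic zygotes read 6.29, 6.35 and 6.47, with the last detected, and ES cells 7.16 and 7.87, both detected. ES cells exceeded 2-cell embryos, where it was not well above background (6.56 and 6.38), by at least 1.91-fold, and the fit did not call the difference (adjusted p = 0.187). The bound sets the ES cell mean against the lowest detected signal of each 2-cell array. All drug control and manipulated arrays, at 5.68 to 6.46, were without detection, as was the second Hsp90aa1 probe on all 21. Hsf2 encodes a heat shock factor active in germ cells and early embryos. Its probe was detected on ES cell B (6.94) and on no other array, so it was not tested.

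**Figure D4:**
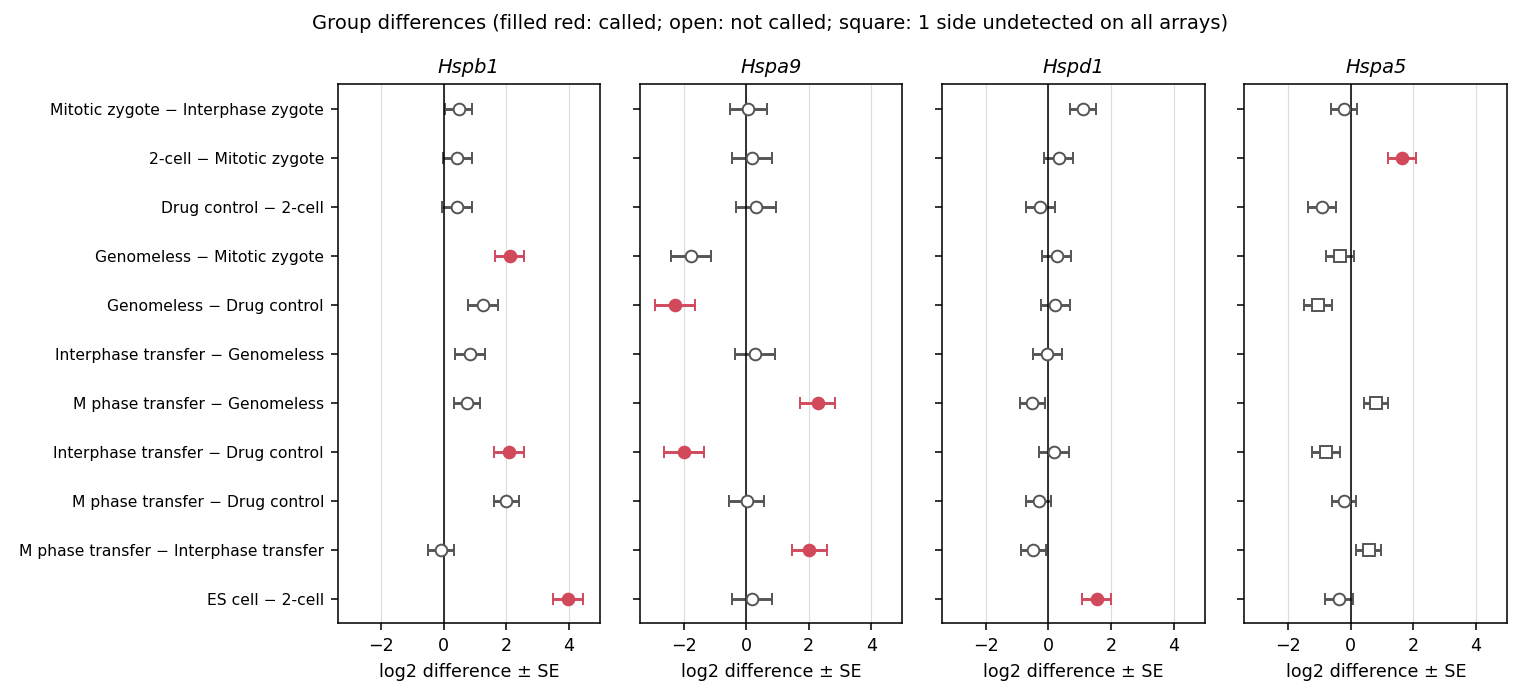
Differences between group means of Hspb1, Hspa9, Hspd1 and Hspa5 (horizontal axes, log2 ± SE) in 11 comparisons (vertical axis), red where called, and squares where 1 side was undetected on all arrays, so that the size is not measured. Hspb1 lies near 2 in both transfer minus drug control comparisons, with the interphase transfer one called, while Hspa9 is at -2.00 for interphase and 0.02 for M phase transfer.

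Over the 5 tested members, the median log2 difference was 0.07 for mitotic minus interphase zygote, 0.32 for 2-cell minus mitotic zygote, -0.26 for drug control minus 2-cell and -0.34 for genomeless minus mitotic zygote. It was 0.74 for M phase transfer minus genomeless, -0.51 for interphase transfer minus drug control, -0.12 for M phase transfer minus drug control and 1.05 for ES cells minus 2-cell. With 5 members each median is the value of 1 gene. For drug control minus 2-cell and for both transfer groups minus drug control that gene was Hsp90aa1, undetected in both groups. The -0.34 was that of Hspa5, undetected in genomeless embryos, and the 1.05 that of Hsp90aa1, undetected in 2-cell embryos. Those medians do not measure a shift of the family. Over all tested genes the medians of these comparisons lay between -0.10 and 0.07. The members moved in different directions within 1 comparison, as with Hspb1 and Hspa9 after interphase transfer.

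Wider lists of the same system named 121 further genes, of which 108 had a probe and 81 were tested. They cover the HSP70 system with its BAG co-chaperones, J-domain proteins that deliver clients to HSP70, HSP90 co-chaperones, ER and mitochondrial folding factors and small heat shock proteins. In 2-cell embryos against mitotic zygotes, 13 (16.05%) were called higher and 6 (7.41%) lower, beside 13.9% and 13.8% of all genes. M phase transfer against genomeless embryos gave 21 higher (25.9%) and 4 lower (4.94%), beside 20.5% and 13.8% of all genes, with a median of 0.46 over the list and 0.07 over all genes. M phase against interphase transfer gave 20 higher (24.7%) and 4 lower (4.94%), beside 17.8% and 11.4% (median 0.43, all genes 0.01). Interphase transfer against drug control gave 2 higher (2.47%) and 20 lower (24.7%), beside 9.51% and 17.1% (median -0.27, all genes 0.02). Genomeless against drug control gave 4 higher (4.94%) and 20 lower (24.7%), beside 11.4% and 19.3%, and genomeless against mitotic zygotes 1 higher (1.23%) and 16 lower (19.8%), beside 6.85% and 13.5%. M phase transfer against drug control, interphase transfer against genomeless, drug control against 2-cell and mitotic against interphase zygotes gave 0 calls by limma in either direction, and 8, 5, 2 and 6 of the 81 had an unadjusted p under 0.05. Array quality weights gave 11 higher and 13 lower for M phase transfer minus drug control, where they called 6.99% and 7.97% of all genes, and 11 higher and 5 lower for mitotic minus interphase zygote, where they called 8.27% and 6.66%. Without the dim arrays, M phase minus interphase transfer gave 12 higher and 6 lower (all genes 15.7% and 18.2%), and M phase transfer minus genomeless 19 and 9 (17.4% and 19.2%). Interphase transfer minus drug control then gave 6 and 18 (17.4% and 16.3%), and genomeless minus drug control 10 and 18 (18.1% and 17.6%).

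**Figure D5:**
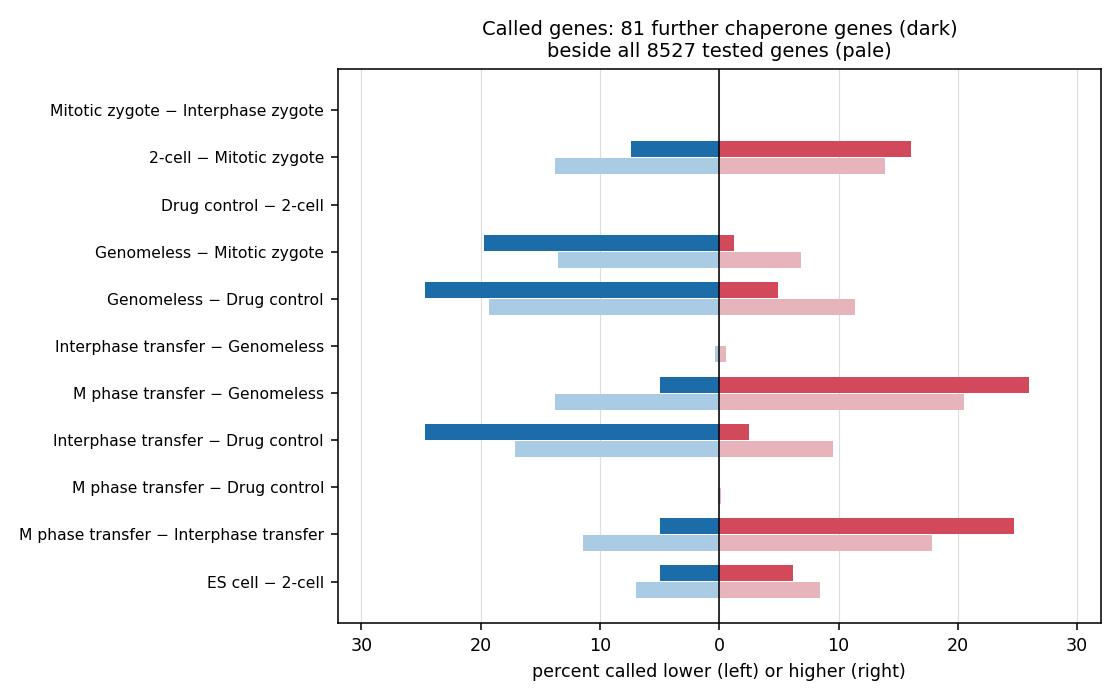
Percent of the 81 further chaperone genes (dark bars) and of all 8527 tested genes (pale bars) called lower (blue, left) or higher (red, right) in each of 11 comparisons (vertical axis). In M phase transfer minus genomeless, 25.9% of the list and 20.5% of all genes were called higher.

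In the cytosolic HSP70 list of 12 tested genes, 7 were called higher in M phase than in interphase transfer embryos (17.8% of all genes) and 7 lower in interphase transfer than in drug control embryos (17.1% of all genes). The 2 comparisons share the interphase transfer samples. Bag3, a co-chaperone that links HSP70 to autophagy, had levels of 11.28, 11.43, 9.48 and 9.17 after M phase transfer, 7.70 and 5.93 after interphase transfer and 7.34 and 5.98 in genomeless embryos. It was higher after M phase than interphase transfer by 3.52 ± 0.67 SE (adjusted p = 0.00127). The probe was not detected on the dim arrays, genomeless B and interphase transfer B. Without them the difference was 2.64, from 1 interphase transfer array. Bag4, which binds HSP70 and tumour necrosis factor receptors, went the other way against genomeless embryos (-1.97, adjusted p = 0.00886) and lost its call there without genomeless array B, with median scaling and with array quality weights. Without both dim arrays the Bag4 call was kept, at -1.70 with genomeless array A alone. Of 17 HSP90 co-chaperones, 6 were called lower in interphase transfer than in drug control embryos, beside 17.1% of all genes. Among them Fkbp4, which acts in steroid receptor complexes, was lower by 4.59 (adjusted p = 0.000754), with 8.19 and 7.06 against 12.37 and 12.04. The value of 7.06 is from the dim array, where the probe was not detected. Without the dim arrays the Fkbp4 difference was -4.02, from 1 interphase transfer array.

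In the mitochondrial list of 8, Clpp and Clpx encode the peptidase and the unfoldase of a matrix protease. Clpp read 6.52 and 6.73 in mitotic zygotes and 10.88 and 11.01 in 2-cell embryos, a difference of 4.32 ± 0.60 SE (adjusted p = 0.000150). Clpx was higher after M phase than interphase transfer by 4.50 ± 0.51 SE (adjusted p = 1.79e-05), with levels of 10.94 to 12.33 against 8.06 and 6.18. The value of 6.18 is from the dim array, where the probe was not detected. Without the dim arrays the difference was 3.56, from 1 interphase transfer array. In the ER list of 14, P4hb, a protein disulfide isomerase, read 12.03 to 12.78 after M phase transfer and 9.06 and 9.34 after interphase transfer, a difference of 3.20 ± 0.70 SE (adjusted p = 0.00330). Creld2, an ER stress gene, was lower in genomeless embryos than in mitotic zygotes by 3.30 (adjusted p = 0.00132), with 9.49 and 7.15 against 11.69 and 11.55. The value of 7.15 is from the dim array, where the probe was not detected. Without the dim arrays the Creld2 difference was -2.13, from 1 genomeless array.

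Of 27 J-domain genes tested, 2 were called higher and 4 lower in 2-cell embryos than in mitotic zygotes, beside 13.9% and 13.8% of all genes, so the lower share (14.8%) was near that of all genes. Dnajb4 was at least 11.8-fold lower in 2-cell embryos, where it was not well above background (adjusted p = 0.000265), and Dnaja2 was lower by 1.86 (adjusted p = 0.0158), a call lost without any 1 of the 4 samples and with median scaling. Dnajb13, a testis and cilia member of the class, was higher in genomeless embryos than in mitotic zygotes by 2.50 (adjusted p = 0.00644). That call was lost without mitotic zygote B or genomeless B. It was kept without both dim arrays, where the difference was 1.91 with genomeless array A alone. Dnajb1, the main cytosolic partner of HSP70, was lower in genomeless embryos than in mitotic zygotes by 2.75 (adjusted p = 0.0146). On genomeless B, a dim array, the Dnajb1 probe was not detected. With genomeless array A alone Dnajb1 was lower by 1.17. The Dnajb1 call was lost without genomeless B and kept without both dim arrays.

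Hspb8, a small heat shock protein that works with Bag3, was at least 12-fold higher in ES cells (10.12 and 10.21) than in 2-cell embryos, where it was not well above background (adjusted p = 0.0114, lost when any 1 of the 4 samples was left out). It read 9.89, 9.55, 8.46 and 7.92 after M phase transfer and 6.44 and 6.17 in drug controls, where it was not detected. Those groups did not overlap, as for 18.2% of all genes, and the difference was not called (adjusted p = 0.321). Hspb8 also read 9.67 in interphase transfer A and 8.70 in genomeless A, against 6.15 and 5.95 on the dim B arrays. Xbp1, the transcription factor of the ER stress response, was higher in ES cells than in 2-cell embryos by 3.14 ± 0.42 SE (adjusted p = 0.000219), and Pdia4, a disulfide isomerase of the ER, was at least 4.11-fold lower and not well above background in ES cells.

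The genes whose levels ran most like each member over the 19 samples are given as a description, since the samples share arrays and groups and fall into clusters. Hspb1 was most like Fto (r = 0.874) and Coa3 (0.872), and Hspa9 most like Psma4 (0.954) and Gtpbp4 (0.939). Hspa5 was most like Tardbp (0.910) and Nudcd2 (0.890), Hsp90aa1 most like Psmc6 (0.943) and Ywhaz (0.914), and Hspd1 most like Ppm1j (0.851) and Steap1 (0.840).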

How the data were processed

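The deposited non-normalised values are probe intensity after background subtraction, per the file headers and the values, with a detection p-value deposited beside each. The deposited processed intensity is the same signal times 1 factor per array. GenomeStudio is listed, per the submitters' processing notes, without a version. Per the labels, RNA was isolated with PicoPure and labelled with biotin. The number of arrays limits the precision.

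Signals were corrected with normexp (offset 50), quantile-normalised and log2-transformed in limma 3.58.1 (R 4.3.3). A probe was kept if 2 or more arrays had it at a detection p below 0.01 (11541 probes), and the probe with the highest mean stood for its gene. Of all probes, 20984 carried 1 gene symbol, 1 several and 3628 none. Repeat arrays of a group (SD of log2 differences under 0.2) were averaged. A group-means model over 19 samples (11 residual degrees of freedom, variance shared over all 8 groups) gave 11 comparisons, 1 of them added after the data were seen, with Benjamini-Hochberg adjustment over 8527 genes within each. Nothing in the labels says that arrays of a group came from separate collections, so p-values measure the spread between these samples.

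The members and the wider lists were chosen with earlier results of these data known. Named genes are all members, up to 4 called genes per direction and comparison with the largest difference in the wider lists, and the 2 genes most like each member; Hspb8 after transfer, Fto and the split of manipulated from other embryo arrays were chosen after their values were seen. A probe undetected on all arrays of a group gives a lower bound, set at the lowest detected signal of each array. Residuals of samples with the same replicate letter had a mean correlation of 0.01 over 57 pairs (-0.30 to 0.46). The highest, 0.46, was between interphase transfer and genomeless samples, whose A arrays share chip 5 and B arrays chip 6. Alternatives changed background correction, scaling, filter, probe choice, repeat arrays, chip and replicate block, array weights, dim arrays and single samples.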

Additional observations from a re-analysis of the deposited data

How the results depend on the processing

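With 2 to 4 samples in most groups, single samples decide several calls. The share of all genes called also moved with the setting, so the member counts below do not by themselves describe the family. Median scaling gave 0 called members in 2-cell minus mitotic zygote, genomeless minus mitotic zygote, interphase transfer minus drug control and genomeless minus drug control, 2 in M phase transfer minus genomeless and 1 in ES cell minus 2-cell. It called 10.2% of all genes as higher and 8.62% as lower in 2-cell minus mitotic zygote. The shares were 0.422% and 7.48% in genomeless minus mitotic zygote, and 16.3% and 5.11% in M phase transfer minus genomeless. Median scaling moved the median of all genes from -0.02 to 0.15 in 2-cell minus mitotic zygote, and the deposited scaled values moved it to -0.33 there and from -0.10 to -0.70 in genomeless minus mitotic zygote. The deposited values gave 2 called members in M phase transfer minus genomeless and in genomeless minus drug control, and 1 in ES cell minus 2-cell. In M phase transfer minus genomeless they called 24.1% of all genes as higher and 9.18% as lower. Dropping the detection filter gave 2 in 2-cell minus mitotic zygote, 1 in interphase transfer minus drug control and 1 in ES cell minus 2-cell, where neqc and chip as a random block (correlation within chips 0.20) also gave 1. Without that filter 6.79% of all genes were called as higher and 6.96% as lower in 2-cell minus mitotic zygote. Treating the 21 arrays as separate gave 2 in genomeless minus mitotic zygote, 1 in M phase transfer minus drug control and 3 in genomeless minus drug control. Of all genes, it called 10.7% as higher and 19.3% as lower in genomeless minus mitotic zygote. The shares were 0.727% and 1.17% in M phase transfer minus drug control. The chip block gave 0 in genomeless minus mitotic zygote and could not be fitted for mitotic minus interphase zygote and ES cell minus 2-cell, whose groups share no chip. Array quality weights gave 1 in mitotic minus interphase zygote, M phase transfer minus drug control and interphase transfer minus drug control, and 0 in genomeless minus mitotic zygote, M phase transfer minus genomeless, M phase minus interphase transfer and genomeless minus drug control. Without the dim arrays the counts were 0 in M phase transfer minus genomeless, M phase minus interphase transfer and genomeless minus drug control, and 1 in interphase transfer minus drug control and M phase transfer minus drug control.

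Leaving out 1 sample at a time gave 0 to 1 called members in 2-cell minus mitotic zygote, M phase transfer minus genomeless, M phase minus interphase transfer and genomeless minus drug control, 0 to 2 in genomeless minus mitotic zygote, and 1 to 2 in interphase transfer minus drug control and ES cell minus 2-cell. The replicate block gave 2 called members in genomeless minus drug control, where Hspb1 stood at 1.25 with an adjusted p of 0.0166, and changed no other count of called members. Residuals of samples sharing a letter had a mean correlation of 0.01 over all groups and of 0.46 between interphase transfer and genomeless samples.

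Single member differences were checked where the groups did not overlap and some array detected the probe, and for Hspb1 in all comparisons. Other member differences, as of Hspd1 in interphase transfer minus genomeless, were not checked for a change of sign. Among those checked, the sign turned in these values, none of them called: Hsp90aa1 in 2-cell minus mitotic zygote with the deposited values (-0.015), Hspd1 in the same comparison with the mean of its probes (-0.048), Hspa5 and Hsp90aa1 in genomeless minus mitotic zygote with median scaling (0.21 and 0.16), and Hspb1 in M phase minus interphase transfer with median scaling (0.997), the deposited values (0.16), without the dim arrays (0.39) and with single samples left out (-0.57 to 0.39). A difference not called in either fit counted as kept if its sign held. Of 461 values of the checked member differences under an alternative, 402 kept their sign and side of the threshold. For the wider lists, 680 of 789 values of named genes did, and the others lost the call in the same direction. The wider lists' calls in genomeless minus mitotic zygote were 1 higher and 7 lower with median scaling, and 6 higher without the dim arrays. The cause of these changes was not tested.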
